A study of Homo sapiens with 12 samples.

Results

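The F-box protein genes and the core genes of the SCF ubiquitin ligase were followed across 2 microarray platforms in A2780 cells, an established human ovarian carcinoma line, after exposure to a cell cycle inhibitor. A gene was a member when its current symbol was FBXO, FBXL or FBXW followed by a number and it codes for a protein, or when it was SKP1, CUL1, SKP2 or BTRC. Only probes that stand for 1 gene were taken. This gave 61 members with 154 probe sets among the 19777 genes and 54613 probe sets of AFFX (Affymetrix HG-U133 Plus 2.0), and 59 members with 85 probes among the 17192 genes and 33096 probes of ABI (Applied Biosystems Human Genome Survey Microarray). All 59 members of ABI were also measured on AFFX, where FBXL8 and FBXO43 were measured in addition. The F-box symbols of pseudogenes and non-coding RNAs (5 on AFFX and 3 on ABI) were left out, as were the probes shared by several genes (4 and 3).

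The treated cells had been exposed to 3 µM of the inhibitor, a compound the labels do not name, for 6 hours, and the control cells were the same line left untreated. Only cells still attached were harvested. Each of the 4 groups (treated and control on AFFX, treated and control on ABI) holds 3 arrays, 12 in all. The cultures of a condition were pooled and the pool was split into aliquots, so that p-values measure the technical spread between arrays and compare 1 treated pool with 1 control pool. The number of arrays limits the precision. As a pool holds the RNA of many cells, fewer cells with a transcript and less RNA per cell cannot be told apart.

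SCF ligases are assembled on the cullin CUL1, which binds the adaptor SKP1 at one end and a RING protein with the ubiquitin-conjugating enzyme at the other. An F-box protein docks on SKP1 through its F-box and holds the substrate with the rest of its sequence, so the choice of F-box protein sets which protein is tagged for degradation. FBXW proteins (and BTRC) bind substrates through WD40 repeats and FBXL proteins (and SKP2) through leucine-rich repeats, while FBXO proteins have other domains. In dividing cells SCF ligases are best known for removing cyclins, CDK inhibitors and other regulators of the cell cycle.

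The promoter windows of 4 members are printed here because they belong to the 3 members with the largest falls on AFFX that were also seen on ABI and to SKP1, the adaptor they all bind, which did not fall. Each runs from 250 bases before to 50 bases after a RefSeq transcript start (GRCh38.p14), 5′ to 3′ on the strand of the gene. FBXO34 is at chr14:55271171-55271470 (plus strand), FBXL5 at chr4:15655308-15655607 (minus strand), FBXO5 at chr6:152983530-152983829 (minus strand) and SKP1 at chr5:134176901-134177200 (minus strand). FBXO34 and FBXO5 have 2 windows each, of which the one further upstream is shown. Capitals mark matches, on either strand, to any of the 12 motifs listed after the sequences.
FBXO34: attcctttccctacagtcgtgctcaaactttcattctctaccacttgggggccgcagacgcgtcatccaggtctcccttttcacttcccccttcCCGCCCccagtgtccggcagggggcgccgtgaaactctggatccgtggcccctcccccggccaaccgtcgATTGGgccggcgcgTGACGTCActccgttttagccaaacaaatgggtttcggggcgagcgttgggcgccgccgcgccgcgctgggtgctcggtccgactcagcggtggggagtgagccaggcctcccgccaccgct
FBXL5: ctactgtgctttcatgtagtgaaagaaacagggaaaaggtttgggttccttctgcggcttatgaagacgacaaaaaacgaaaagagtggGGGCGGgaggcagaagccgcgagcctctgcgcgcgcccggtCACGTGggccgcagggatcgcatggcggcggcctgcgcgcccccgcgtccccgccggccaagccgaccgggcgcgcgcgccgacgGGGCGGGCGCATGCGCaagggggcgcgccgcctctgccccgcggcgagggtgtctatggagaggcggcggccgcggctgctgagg
FBXO5: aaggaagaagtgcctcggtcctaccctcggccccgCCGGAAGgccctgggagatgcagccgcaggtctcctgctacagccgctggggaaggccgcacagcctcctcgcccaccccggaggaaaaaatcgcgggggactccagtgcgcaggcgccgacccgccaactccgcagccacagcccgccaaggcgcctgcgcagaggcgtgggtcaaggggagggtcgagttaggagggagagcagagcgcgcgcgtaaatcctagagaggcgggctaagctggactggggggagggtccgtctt
SKP1: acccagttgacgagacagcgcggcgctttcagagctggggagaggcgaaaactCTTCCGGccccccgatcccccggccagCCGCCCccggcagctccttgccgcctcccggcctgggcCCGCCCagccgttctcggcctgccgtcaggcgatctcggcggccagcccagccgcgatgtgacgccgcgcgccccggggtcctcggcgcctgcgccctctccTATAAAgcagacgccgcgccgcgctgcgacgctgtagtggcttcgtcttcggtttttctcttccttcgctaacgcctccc

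The motifs searched, with the share of all 35116 RefSeq windows that hold each on either strand, were TATAAA (11.5%), CCAAT (34.6%), GGGCGG (45.0%), CCGGAAG (10.3%), CACGTG (7.26%), TGACGTCA (1.85%), TTTCCCGC (1.63%), TTTGGCGC (0.652%), TTTGAA (15.2%), GCGGAAG (7.21%) and the spelled-out core motifs of NRF1 (1.24%) and YY1 (0.849%). In the FBXO34 window a CCAAT box in reverse orientation begins 86 bases before the start and the full cAMP response element TGACGTCA begins 72 bases before it. FBXL5 holds an E-box, CACGTG, and a GGGCGG box that runs straight into the NRF1 motif without overlap. The printed FBXO5 window holds a single match, CCGGAAG, the core bound by ETS factors, beginning 215 bases before its start. SKP1 has a TATAAA box beginning 30 bases before its start. It also holds CCGGAAG, in reverse orientation, beginning 197 bases before the start, and GGGCGG boxes beginning 170 and 132 bases before it. Over the 20 windows of 13 genes lower on both platforms, 6 held CCGGAAG and 11 held GGGCGG. Over the 50 windows of 34 other members, the counts were 7 and 38. TTTCCCGC and TTTGGCGC, spellings of the E2F site, were found in no window of a member. A match is a description of the letters alone. The windows and motifs were chosen with the expression values and these sequences known.

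In treated cells many F-box genes had lower signals and few had higher ones. Calls of lower or higher required both a limma p below 0.05 after Benjamini-Hochberg adjustment across every probe of the platform and a 1.5-fold or greater change. On AFFX 22 of 61 members (36.1%) were lower and 1 was higher (1.64%), beside 14.2% and 2.49% of all genes. On ABI 18 of 59 (30.5%) were lower and 3 were higher (5.08%), beside 14.8% and 6.31% of all genes. The same 15 members were lower on both platforms (25.4% of 59, beside 10.5% of all genes measured on both), none was higher on both, beside 0.42% of all shared genes, and none was called in opposite directions. The median log2(Fold Change) of the members was -0.20 on AFFX, against 0.16 over all genes, and -0.00014 on ABI, against 0.09, so that on ABI the middle member did not move while a group of them fell.

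Counted by probe, 35 of the 154 AFFX probe sets of members were lower (22.7%) and 1 was higher (0.649%), beside 8.95% and 1.75% of all probe sets. On ABI 22 of 85 probes were lower (25.9%) and 4 were higher (4.71%), beside 10.1% and 7.71% of all probes. Members and all genes were not alike in their probes, and the shares called depended on signal. Several AFFX probe sets stood for 68.9% of members, against 53.2% of all genes, and several ABI probes for 30.5%, against 18.5%. Where the brightest probe set of a gene lay above the median AFFX signal, 42.3% of 52 members were lower, against 19.8% of all genes there, and below the median 0 of 9, against 3.12%. On ABI the shares were 36.2% of 47 members above the median, against 23.1% of all genes, and 8.33% of 12 below it, against 3.54%. Whether the members stand apart from genes matched on these features was not tested.

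**Figure D1:**
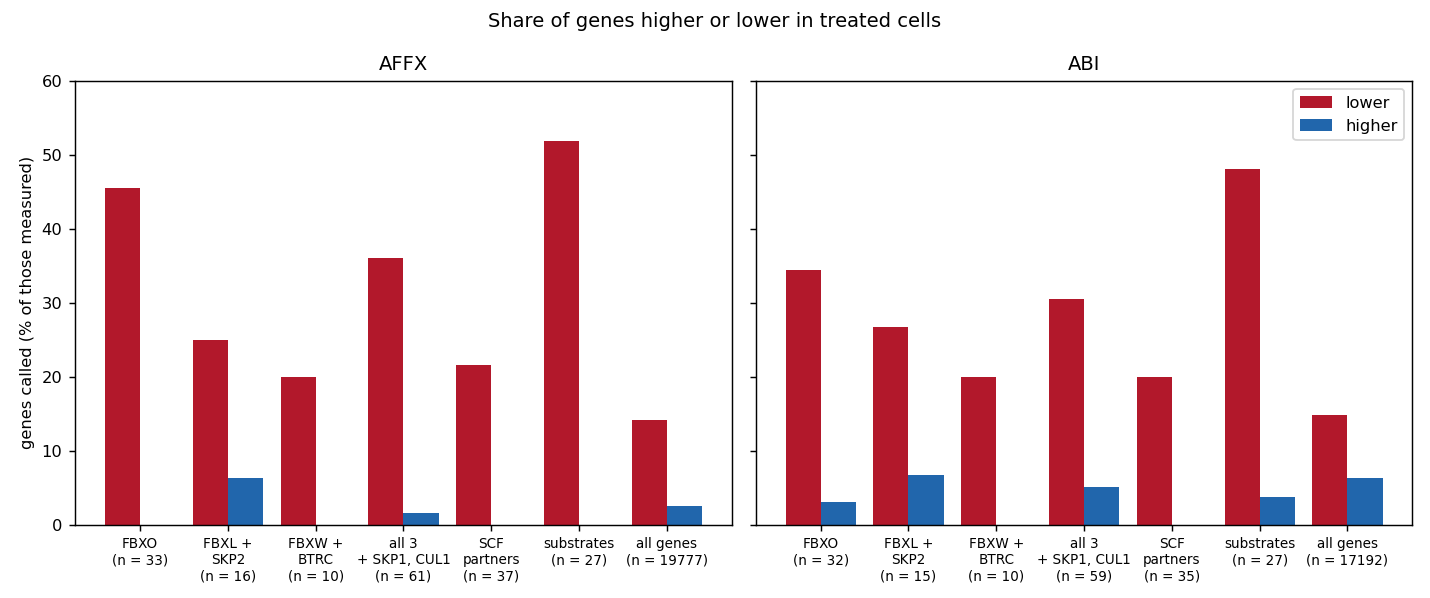
Share of genes (%) called lower (red) or higher (blue) in treated cells on AFFX and ABI, for the 3 F-box subfamilies, all members, SCF partners, known substrates and all genes, with the number measured under each. The red bar of the FBXO genes stands at 45.5% on AFFX and 34.4% on ABI, above the 14.2% and 14.8% of all genes.

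By subfamily, 15 of 33 FBXO genes were lower on AFFX and none was higher, and on ABI 11 of 32 were lower and 1 was higher. Of the FBXL genes with SKP2, 4 of 16 were lower and 1 was higher on AFFX, and 4 of 15 and 1 on ABI. Of the FBXW genes with BTRC, 2 of 10 were lower and none was higher on either platform. Over all genes 14.2% were lower on AFFX and 14.8% on ABI. The 15 falls shared by the platforms comprise 11 of 32 FBXO genes, 2 of 15 FBXL genes with SKP2, 1 of 10 FBXW genes with BTRC, and CUL1, and for the FBXL and FBXW genes this share is near the 10.5% of all shared genes. The difference between subfamilies was not tested.

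**Figure D2:**
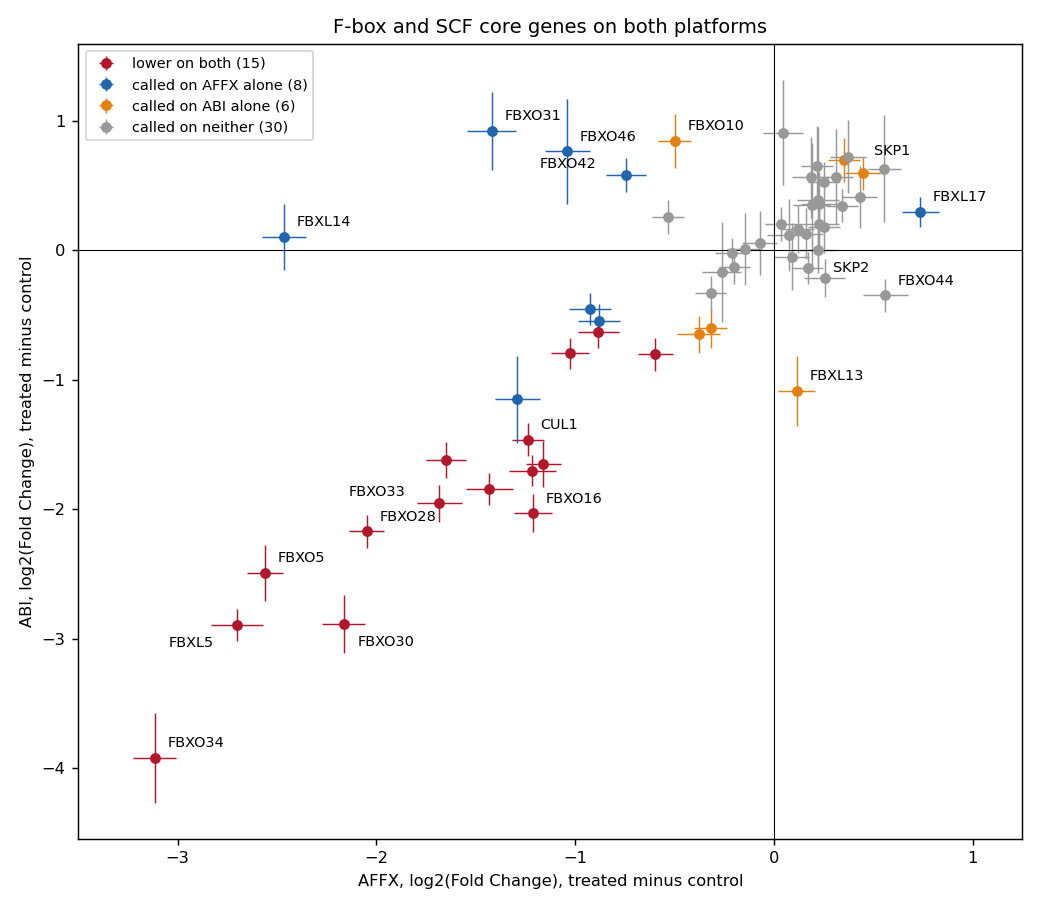
Each of the 59 members shared by the platforms, placed by its log2(Fold Change) (treated minus control) on AFFX (horizontal) and ABI (vertical), with standard errors from limma as bars. The 15 members lower on both (red) run down to FBXO34 at -3.12 and -3.92, and FBXL14, FBXO31, FBXO46 and FBXO42 (blue) sit above the horizontal zero line while lower on AFFX.

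FBXO34 (Entrez Gene ID 55030), a little-characterised F-box protein, had the largest fall of all members on AFFX, and on ABI by the probe that stood for it. Its AFFX signals were 5.84, 5.43 and 5.69 (log2) on treated arrays, against 8.83, 8.68 and 8.79 on control arrays, which is 8.67-fold lower (log2(Fold Change) -3.12 ± 0.11, SE; limma adjusted p = 1.18e-08). On ABI they were -0.81, 0.04 and 0.52 on treated arrays, against 3.83, 3.88 and 3.80 on control arrays, or 15.2-fold lower (-3.92 ± 0.34; limma adjusted p = 0.00182). The groups lie far apart on both platforms, and the treated ABI arrays spread more widely than the control arrays (SD 0.67, against 0.04). A second of its 3 ABI probes was also lower, by 7.55-fold, while the third changed by 0.77 and was not called. Without treated replicate 2 on ABI this second probe stood for the gene, with -2.49, and FBXL5 and FBXO30 then had larger falls there. The probe used otherwise had -3.99 in that fit.

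FBXL5 (Entrez Gene ID 26234) carries a hemerythrin-like domain that senses iron, and it sends the iron regulatory protein IREB2 to the proteasome when iron is plentiful. It had 5.37, 5.60 and 5.11 on treated AFFX arrays, against 8.23, 8.07 and 7.88 on control arrays (6.50-fold lower, limma adjusted p = 8.5e-08). Its ABI signals were 1.32, 1.17 and 1.16 on treated arrays, against 4.18, 4.04 and 4.11 on control arrays (7.45-fold lower, limma adjusted p = 0.000452). No treated array came near a control array. The AFFX fall is that of 1 of 2 probe sets, and the other changed by -0.55 without being called.

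FBXO5 (Entrez Gene ID 26271), also called EMI1, inhibits the anaphase-promoting complex, the other large cell cycle ubiquitin ligase, and is made in cells entering S phase. Its AFFX signals were 6.25, 6.02 and 6.06 on treated arrays, against 8.69, 8.63 and 8.70 on control arrays, 5.90-fold lower (-2.56 ± 0.09; limma adjusted p = 1.09e-08). Its second probe set fell by almost the same size, with 3.90, 3.90 and 3.77 on treated arrays, against 6.61, 6.39 and 6.29 on control arrays (-2.57). ABI gave 0.36, 0.08 and -0.30 on treated arrays, against 2.77, 2.41 and 2.44 on control arrays (5.64-fold lower, limma adjusted p = 0.00178). The 3 probes of FBXO5 thus showed falls of similar size, each with treated arrays wholly below control arrays. Its paralog FBXO43, an inhibitor of the same complex in egg cells, was measured only on AFFX, with 6.82, 6.67 and 6.73 on treated arrays, against 6.95, 6.94 and 7.01 on control arrays. That change, -0.23, stayed below the fold limit.

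FBXO30 and FBXO28 complete the 5 members that fell by at least 4-fold on AFFX and on ABI. FBXO30, an F-box protein known in mouse for its part in muscle atrophy, had 5.71, 5.35 and 5.43 on treated AFFX arrays, against 7.73, 7.70 and 7.55 on control arrays (-2.17 ± 0.11; limma adjusted p = 9.34e-08). On ABI it had 1.93, 1.23 and 1.34 on treated arrays, against 4.51, 4.23 and 4.43 on control arrays (-2.89 ± 0.22; limma adjusted p = 0.00131). FBXO28, which has been tied to ubiquitylation of the MYC protein, had 7.02, 7.14 and 7.10 on treated AFFX arrays, against 9.24, 9.06 and 9.12 on control arrays (-2.05 ± 0.09; limma adjusted p = 3.67e-08). Its ABI signals were 2.94, 3.14 and 3.02 on treated arrays, against 5.33, 5.15 and 5.13 on control arrays (-2.17 ± 0.13; limma adjusted p = 0.000815). FBXO28 was lower by 4 of 5 AFFX probe sets and by both ABI probes, while 1 of the 2 FBXO30 probe sets did not move.

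**Figure D3:**
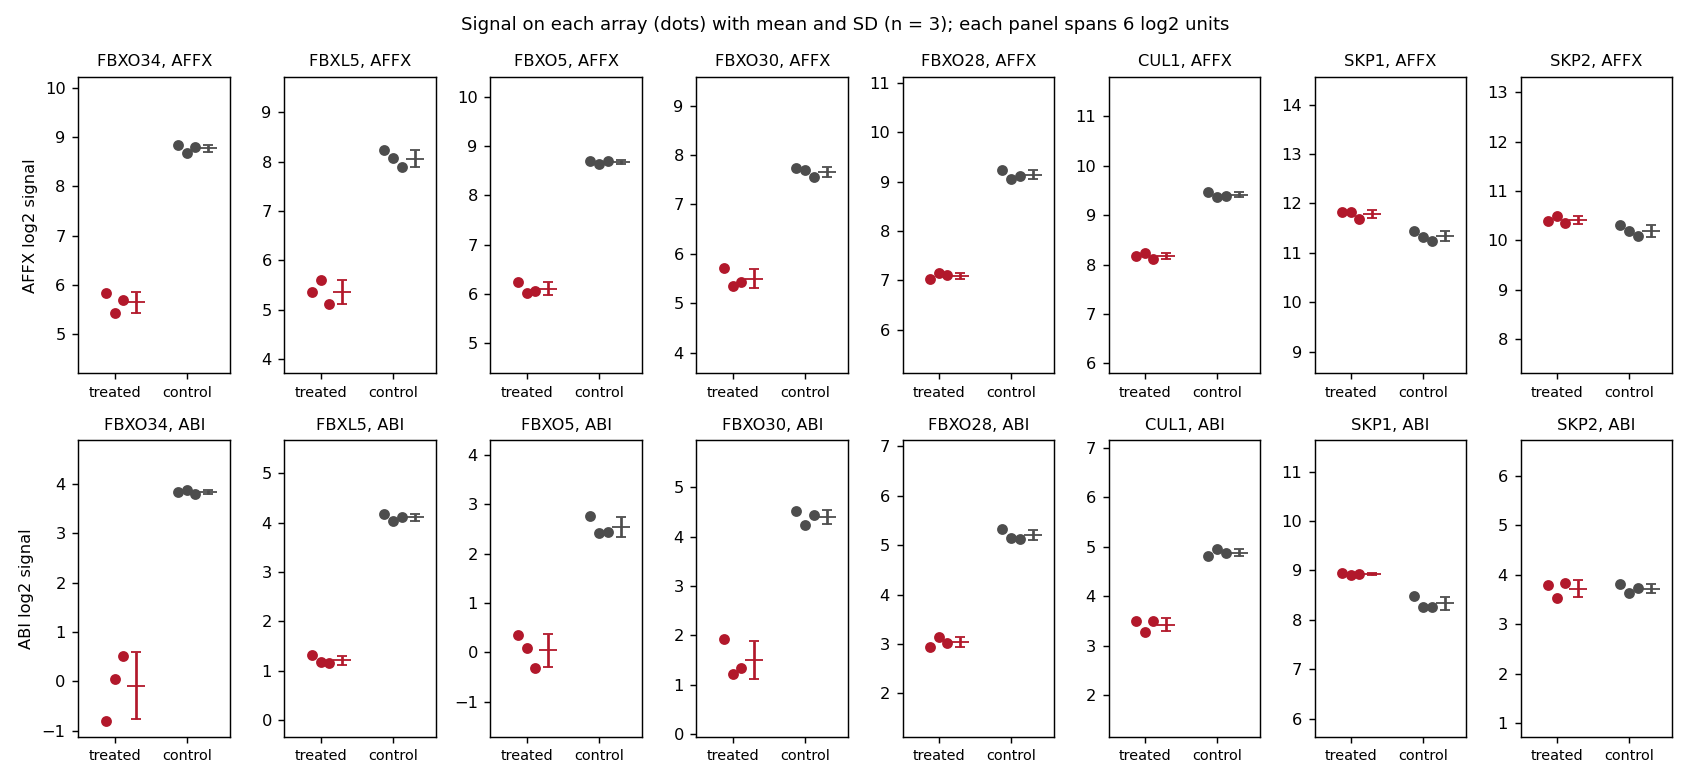
Log2 signal on each array (dots) with mean and SD (bars, n = 3) for 8 members on AFFX (top) and ABI (bottom), treated left of control in every panel, all panels spanning 6 log2 units. FBXO34, FBXL5, FBXO5, FBXO30, FBXO28 and CUL1 have treated arrays well below control arrays, SKP1 has them slightly above, and SKP2 overlaps on ABI.

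Of the scaffold, CUL1 (Entrez Gene ID 8454) fell and SKP1 (Entrez Gene ID 6500) did not. CUL1, the cullin on which every SCF ligase is built, had 8.18, 8.24 and 8.11 on treated AFFX arrays, against 9.48, 9.38 and 9.39 on control arrays (2.36-fold lower, limma adjusted p = 7.5e-07). On ABI it had 3.50, 3.27 and 3.50 on treated arrays, against 4.82, 4.96 and 4.88 on control arrays (2.76-fold lower, limma adjusted p = 0.00191). The second AFFX probe set of CUL1 changed by 0.20 and was not called. SKP1, the adaptor that F-box proteins bind, had 11.83, 11.83 and 11.69 on treated AFFX arrays, against 11.44, 11.32 and 11.24 on control arrays (0.45 ± 0.09), under the fold limit. ABI gave 8.95, 8.90 and 8.93 on treated arrays, against 8.48, 8.25 and 8.27 on control arrays, a rise of 1.51-fold that was called (limma adjusted p = 0.0278). Centring the arrays on ribosomal protein genes moves the median of all genes by -0.24 on AFFX and -0.61 on ABI. The same ABI probe of SKP1 then changed by 0.05, and another probe, with -0.26, stood for the gene. The groups did not overlap on either platform, but the ABI value lies at the fold limit.

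SKP2 (Entrez Gene ID 6502), the F-box protein that removes the CDK inhibitor CDKN1B, was not called on either platform. It had 10.39, 10.50 and 10.35 on treated AFFX arrays, against 10.32, 10.19 and 10.08 on control arrays (0.22 ± 0.09, limma adjusted p = 0.0758). Its other AFFX probe sets changed by -0.06 and -0.004, with overlap of the groups. On ABI it had 3.79, 3.52 and 3.84 on treated arrays, against 3.80, 3.63 and 3.73 on control arrays, and the arrays of the groups overlapped there. FBXW7, which recognises cyclin E and NOTCH proteins, had 6.50, 6.41 and 6.42 on treated AFFX arrays, against 7.03, 6.96 and 6.95 on control arrays (-0.54 ± 0.08), with an adjusted p of 0.000437 in limma but a fold of 1.45, just short of the limit. The other AFFX probe sets of FBXW7 changed by -0.37, -0.03 and 0.28 and were not called. On ABI the arrays of FBXW7 stood the other way round, with 3.59, 3.66 and 3.80 on treated arrays, against 3.46, 3.32 and 3.50 on control arrays, and the change of 0.26 was not called. FBXO7, linked to mitophagy and to inherited parkinsonism, changed by -0.20 and -0.13 and was not called.

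The paralogs BTRC and FBXW11 bind the same phosphorylated motif, present in beta-catenin and NFKBIA. FBXW11 was lower on both platforms. Its AFFX signals were 6.07, 5.86 and 6.19 on treated arrays, against 6.89, 7.02 and 6.85 on control arrays (-0.88 ± 0.10; limma adjusted p = 6.21e-05), and its other probe set fell by 0.73. On ABI it had 3.56, 3.75 and 3.57 on treated arrays, against 4.29, 4.21 and 4.27 on control arrays (-0.64 ± 0.12; limma adjusted p = 0.0209). BTRC had 5.42, 5.35 and 5.72 on treated AFFX arrays, against 6.49, 6.37 and 6.40 on control arrays (-0.93 ± 0.10; limma adjusted p = 5.45e-05), by 2 of its 5 probe sets. On ABI it had 2.74, 2.83 and 2.84 on treated arrays, against 3.34, 3.28 and 3.15 on control arrays, and this change, -0.45, missed the limits (limma adjusted p = 0.0503). Its other ABI probe changed by -1.95 and was not called (limma adjusted p = 0.0563), while the median of both probes, -1.20, was called lower. The 2 platforms' changes of BTRC did not differ in the interaction test (limma adjusted p = 0.064), which does not show them to be alike.

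A further group of FBXO and FBXL genes was lower on both platforms. FBXO33, known for recognising the Y-box protein YBX1, averaged 4.43 ± 0.17 on treated AFFX arrays and 6.12 ± 0.17 on control arrays (SD, n = 3 each), with -1.68 on AFFX and -1.96 on ABI. FBXO38, which marks the receptor PDCD1 for degradation in T cells, averaged 6.68 ± 0.05 on treated and 8.33 ± 0.17 on control AFFX arrays, with -1.65 and -1.62. All AFFX probe sets of both genes were lower. Without treated replicate 1 the other probe set stood for FBXO33 on AFFX, with -0.72, while the probe set used otherwise had -1.67. FBXL12, an F-box protein described as acting on CDKN1C, averaged 7.23 ± 0.25 on treated and 8.66 ± 0.08 on control AFFX arrays, with -1.43 and -1.85. FBXO11, which acts on BCL6 in B cells, averaged 7.19 ± 0.17 on treated and 8.41 ± 0.19 on control AFFX arrays, with -1.22 and -1.70, and both of its ABI probes were lower. The other AFFX probe sets of FBXO11 changed by 0.37 and -0.19, and that of FBXL12 by 0.25, none of them called.

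FBXO16 and FBXO8 were also lower on both platforms. FBXO16 averaged 5.65 ± 0.09 on treated and 6.86 ± 0.14 on control AFFX arrays (-1.21), and 2.40 ± 0.20 on treated and 4.43 ± 0.03 on control ABI arrays (-2.03), and its change differed between the platforms (limma interaction, adjusted p = 0.00793). FBXO8, which joins an F-box to a Sec7 domain, averaged 5.10 ± 0.12 on treated and 6.26 ± 0.06 on control AFFX arrays (-1.16), and changed by -1.65 on ABI, a difference that did not pass the interaction test (limma adjusted p = 0.117). Over the 15 shared falls, 11 had the larger fold on ABI and 12 reached 2-fold on both platforms. These counts were not made over all genes lower on both platforms. The 3 below 2-fold on at least 1 platform were FBXO45 (-1.03 and -0.80), FBXW11, and FBXO41 (-0.60 and -0.80). FBXO45 works with MYCBP2 instead of CUL1, and FBXO41 is known from mouse neurons.

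The calls of these 3 depended on single arrays. FBXO45 had -0.43 on AFFX without control replicate 1, where another probe set stood for it, and -0.78 on ABI without control replicate 2, and neither was called. FBXW11 was not called on ABI, with values between -0.66 and -0.60, when treated replicate 1 or 3 or any control replicate was left out. FBXO41 was not called on AFFX, with values between -0.58 and -0.56, when treated replicate 1 or 3 or control replicate 1 or 3 was left out.

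**Figure D4:**
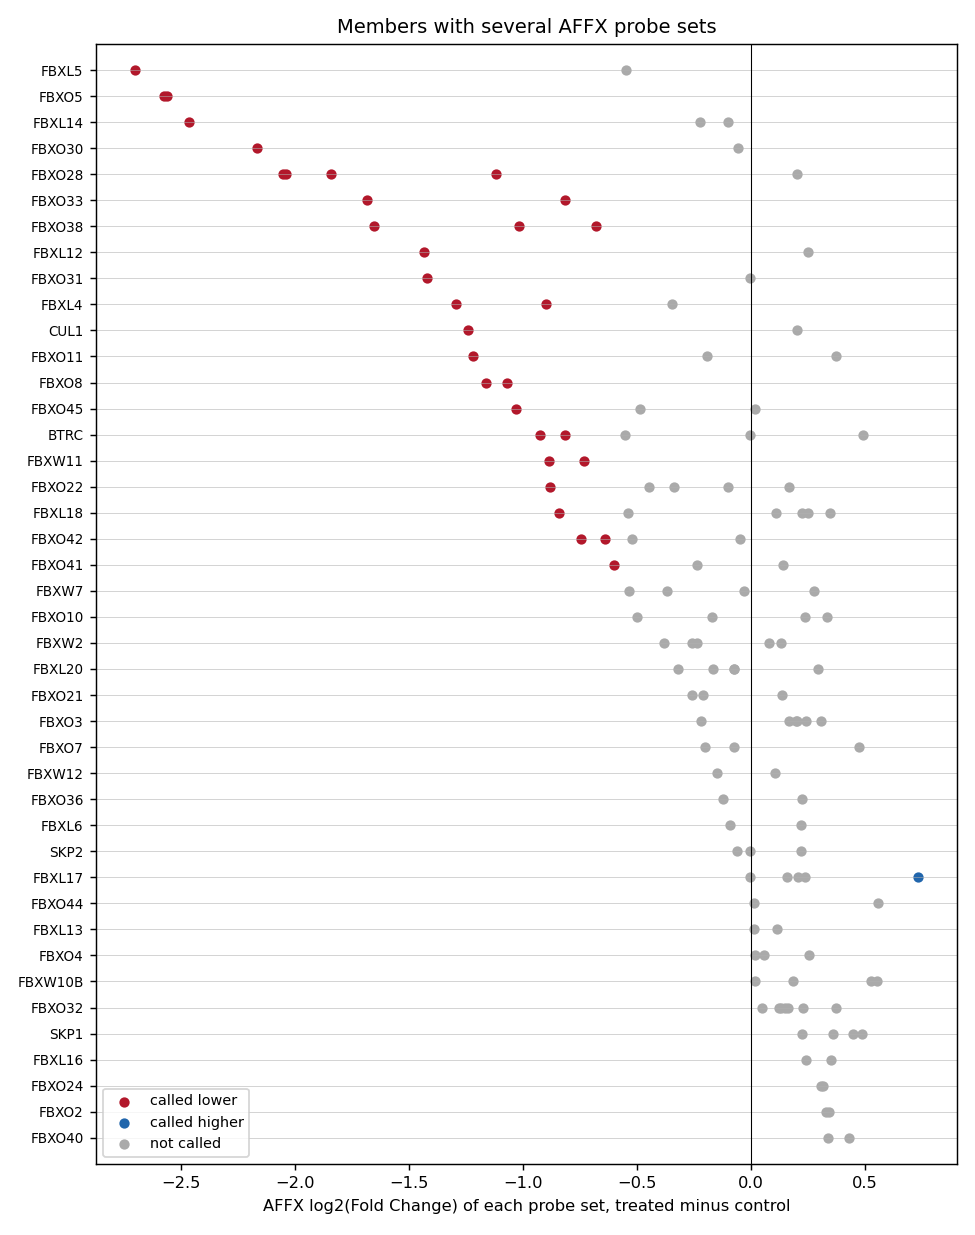
AFFX log2(Fold Change), treated minus control, of every probe set (dots) of the 42 members with several, 1 gene per line, in red where lower, blue where higher and grey where not called. FBXO5 has its red dots almost on top of each other near -2.6, while FBXL14 has 1 red dot at -2.47 and 2 grey ones near 0.

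Probe sets of a member often did not move together, and how often those of other genes did was not counted. Of the 42 members with several AFFX probe sets, 20 had at least 1 that was lower, 9 had at least 2, and in 5 all were lower (FBXO33, FBXO38, FBXO5, FBXO8 and FBXW11). None had probe sets called in both directions. Of the 18 members with several ABI probes, 7 had at least 1 lower, 3 had at least 2, and in 2 all were lower (FBXO11 and FBXO28). Names of AFFX probe sets that end in _s_at or _x_at mark probes that can bind more than 1 transcript. Without them 9 of the 15 shared falls remained. FBXO5 and FBXO38 then had no AFFX probe set, FBXL5 had -0.55, and the remaining probe sets of CUL1, FBXO11 and FBXL12 gave 0.20, 0.37 and 0.25. This setting was chosen after the data had been seen, and the cause of the difference between probe sets was not tested.

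In the interaction test of limma 10 of 59 members changed differently on the 2 platforms, a share near the 15.1% of all shared genes. Of these 10 members 8 had opposite signs, which was not counted over all genes. The member with the smallest p was FBXL14, which acts on the transcription factor SNAI1. It had 6.66, 6.42 and 6.40 on treated AFFX arrays, against 9.14, 8.97 and 8.78 on control arrays (5.53-fold lower), by 1 of its 3 probe sets. Its single ABI probe had 1.75, 1.82 and 1.34 on treated arrays, against 1.88, 1.11 and 1.62 on control arrays, with overlap. The change on ABI minus that on AFFX was 2.57 ± 0.28 (SE; limma adjusted p = 0.000343). Of the members named for such a difference or for a call on 1 platform, all but BTRC, FBXO16, FBXO31, FBXW7 and SKP1 were picked after their values were seen, as was FBXO43.

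FBXO31, described as removing cyclin D1 after DNA damage, had 5.27, 5.24 and 5.71 on treated AFFX arrays, against 6.78, 6.89 and 6.81 on control arrays (-1.42), while its other probe set changed by 0.00. On ABI it had -1.89, -1.60 and -1.03 on treated arrays, against -2.12, -2.84 and -2.32 on control arrays (0.92, not called), signals within the lowest 2.6% of the platform in control cells. FBXO46 gave -1.04 on AFFX and 0.76 on ABI, and FBXO10, known for acting on BCL2, gave -0.50 (not called) and 0.84 (higher). The other AFFX probe sets of FBXO10 changed by -0.17, 0.24 and 0.34 and its other ABI probe by -0.39, none of them called. FBXO42, an F-box protein reported to act on p53, gave -0.75 on AFFX and 0.58 on ABI by the probe that stood for it, while another of its 5 ABI probes was 5.10-fold lower. FBXL17, which removes faulty dimers of BTB proteins, was the single member higher on AFFX, with 7.88, 8.03 and 7.77 on treated arrays, against 7.18, 7.09 and 7.21 on control arrays (0.74), by 1 of its 5 probe sets. Without control replicate 1 another probe set stood for FBXL17, with 0.13, and the call was lost, while the probe set used otherwise had 0.75. The members higher on ABI were FBXO10, SKP1 and FBXL16 (0.70), and none of the 3 was called without treated replicate 1, 2 or 3.

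Called on 1 platform were 8 members on AFFX and 6 on ABI, and 30 were called on neither. Those lower on AFFX alone were FBXL14, FBXO31, FBXL4 (-1.29), FBXO46, BTRC, FBXO22 (-0.88) and FBXO42, and those lower on ABI alone were FBXL13 (-1.09), FBXW2 (-0.65) and FBXL20 (-0.60). FBXO22, which acts on histone demethylases of the KDM4 family, was lower by 1 of its 5 AFFX probe sets, and the other 4, between -0.45 and 0.17, were not called. With dim probes left out the value of FBXO22 was -0.34. FBXO42 was not called on AFFX without treated replicate 1 (-0.45) or 2 (-0.57), where other probe sets stood for it. The AFFX probe set of FBXO42 used otherwise had -0.70 and -0.78 in these fits. FBXL13 was called on ABI in only 1 of the 6 fits that left out an array, that without control replicate 1, and its change was -0.28 on log2(signal + 1). FBXL4, a mitochondrial protein that restrains mitophagy, had -1.15 on ABI, of like size, but its treated arrays spread from -0.01 to 1.28 and it was not called (limma adjusted p = 0.0646). By the probes that stood for them, the 30 called on neither ranged between -0.54 and 0.56 on AFFX and between -0.35 and 0.91 on ABI. FBXL18 was among them, but another of its AFFX probe sets was lower (-0.84). The rest of its AFFX probe sets, between -0.54 and 0.35, were not called. Of all 59 members on both platforms, 45 had the same sign. The counts of calls on 1 platform or on neither, and of signs, were not made over all shared genes.

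Partners of SCF, such as other cullins, the NEDD8 pathway and the COP9 signalosome, were also counted. Of 37 measured on AFFX 8 were lower and none was higher (median 0.18), and of 35 on ABI 7 were lower and none was higher (median -0.17), beside 14.2% and 14.8% of all genes lower. All 7 of ABI were also lower on AFFX (7 of 35, beside 10.5% of all shared genes), and they are named for that. They were ARIH1, a ligase that works together with cullins (-1.64 on AFFX and -2.10 on ABI), SENP8, the protease that processes NEDD8 (-1.35 and -2.46), CCNF, itself an F-box protein by another name (-1.11 and -1.44), and DCUN1D1, DCUN1D3, DCUN1D4 and DCUN1D5, which help attach NEDD8 to cullins. The AFFX falls of these 4 lay between -0.87 and -0.62. Whether the partners differ from the F-box genes was not tested.

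Among 27 genes of known SCF substrates measured on each platform, 14 were lower and none was higher on AFFX (median -0.63), and 13 were lower and 1 was higher on ABI (median -0.82), beside 14.2% and 14.8% of all genes lower. Of 26 on both platforms, 11 were lower on both, beside 10.5% of all shared genes, of which 5 are given here, chosen after their values were seen. CDKN1B, the CDK inhibitor that SKP2 binds, changed by -3.39 on AFFX and -3.25 on ABI, KIF18A, a mitotic kinesin, by -2.83 and -3.18, and BORA, an activator of Aurora A, by -2.45 and -3.47. CCNE1, the cyclin that FBXW7 binds, changed by -0.97 and -1.63, and CDT1, the replication licensing factor that SKP2 binds, by -1.54 and -1.74. The single substrate gene called higher was ATF4 on ABI (0.82), which changed by 0.02 on AFFX. These are RNA signals. Protein levels were not measured.

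The arrays of a group were close, with squared correlations of at least 0.988 on AFFX and 0.94 on ABI, and the median SD over probes was 0.113 on treated and 0.0976 on control arrays of AFFX, and 0.298 on treated and 0.261 on control arrays of ABI. The 9 AFFX hybridisation control probe sets, for bacterial transcripts spiked into each sample, averaged 9.41 on treated arrays and 8.94 on control arrays (log2). Treated minus control was 0.47, with treated arrays from 9.06 to 9.59 and control arrays from 8.82 to 9.08, so the ranges barely overlapped. The epithelial character of the line was not tested, since signals of different probes cannot be set against each other. On AFFX the median signal of 6 epithelial markers was 5.50 on treated and 5.28 on control arrays, that of 8 leukocyte markers 5.45 on treated and 5.30 on control arrays, and that of 7 fibroblast or endothelial markers was 6.09 on treated and 5.91 on control arrays. On ABI the median of 5 epithelial markers was -1.07 on treated and -0.15 on control arrays, that of 9 leukocyte markers -1.20 on treated and -0.98 on control arrays, and that of 7 fibroblast or endothelial markers 1.56 on treated and 1.74 on control arrays. No marker was called on AFFX, and 1 epithelial marker was lower on ABI. The part of these values in the results was not tested.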

How the data were processed

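RNA of treated and control A2780 cells was measured on 3 arrays per group and platform. On AFFX the authors deposited log2 signals from RMA and quantile normalization (version not given in the sources used here). On ABI the authors deposited linear chemiluminescence intensity after global median normalization, on an unstated scale and without detection flags. Here AFFX values were used as deposited, less 62 control probe sets, and ABI values were turned to log2. Array medians lay between 5.37 and 5.47 (AFFX, log2) and between 1.06 and 1.19 (ABI, linear).

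Genes were named from the platform annotation, and of the probes tested 41091 on AFFX and 21089 on ABI stood for 1 gene. A gene with several probes was represented by the probe whose equal-variance test gave the smallest p, as the paper's methods describe. Because this choice used the tested arrays, it favours larger folds. The unpaired comparison of treated with control used limma 3.58.1 in R 4.3.3 and Benjamini-Hochberg adjustment over all probes, and calls needed an adjusted p under 0.05 and 1.5-fold. Differences between platforms were tested as an interaction in limma over the 16186 shared genes. The steps were tested on simulated data.

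The members, the lists of partners and substrates and the tests were chosen with earlier results of these data known. Genes named by rule were a fixed set (SKP1, CUL1, SKP2, BTRC, FBXW7, FBXW11, FBXO5, FBXO31, FBXL5, FBXO11, FBXO7), every member called alike on both platforms and the largest called on 1 platform and measured only there, of which there were none. Another gene of the fixed set is not reported here. Promoter windows came from RefSeq (GRCh38.p14), where 47 of 61 members matched by symbol. Alternatives were a replicate block, other scalings, filters, thresholds, probe choices and tests, and each array left out in turn.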

Additional observations from a re-analysis of the deposited data

Results flagged for a closer look

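The changes of 10 of 59 members differed between the platforms in the limma interaction, a share near the 15.1% of all shared genes. The change on ABI minus that on AFFX (log2) was 2.57 for FBXL14, 2.34 for FBXO31, 1.80 for FBXO46, 1.34 for FBXO10, 1.32 for FBXO42 and 0.79 for FBXW7, all of which had the lower value on AFFX. It was -1.21 for FBXL13, -0.91 for FBXO44, -0.82 for FBXO16 and -0.44 for FBXL17, which had the lower value on ABI. In control cells the ABI probes of FBXO31 and FBXO46 lay within the lowest 2.6% and 24.1% of signals and the AFFX probe set of FBXL13 within the lowest 7.4%, so the sizes of their differences are uncertain. Each difference holds for the probes that stood for the gene. Another ABI probe of FBXO42 was lower (-2.35), and the rest, between -0.66 and 0.98, were not called. The other AFFX probe set of FBXO44 changed by 0.01. Other AFFX probe sets of FBXW7 and FBXO10 also gave changes of either sign. The array weights of each platform, an alternative added after the data were seen, left 8 of the 10, with an adjusted p of 0.0565 for FBXO44 and 0.192 for FBXL17.

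On ABI 2 probes that stand for both FBXL8 and HSF4, and so were not counted for any member, were higher in treated cells, by 1.09 and 0.91 (limma adjusted p = 0.0344 and 0.0282). The single AFFX probe set of FBXL8 changed by -0.17 and was not called. Which of the 2 genes the ABI signal came from was not tested.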

How the results depend on the processing

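Over the alternatives run, the number of members lower on both platforms was 12 to 19 (15 as reported), except for 9 without the _s_at and _x_at probe sets, and it was 13 to 16 with 1 array left out. Those lower on AFFX numbered 15 to 28 and on ABI 12 to 27. The few rises were unstable. On AFFX the 1 member higher became 2 after quantile normalization, 11 with no fold limit, and 0 with arrays centred on ribosomal protein genes, with the median of all probes per gene or with a 2-fold limit, and 0 to 3 with 1 array left out (0 without control replicate 1, 3 without control replicate 3). On ABI the 3 members higher became 5 after quantile normalization, 1 with the median of all probes, the methods' t-test or log2(signal + 1), and 0 with ribosomal centring, a 2-fold limit or the replicate block, and 0 to 1 with 1 array left out. With no fold limit 2 members were higher on both platforms. Members differing between platforms numbered 7 to 12 with 1 array left out and 8 with array weights.

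Values called in at least 1 of the settings that turned sign were SKP1 on ABI (-0.26) and FBXO42 on ABI (-2.89) with ribosomal centring, FBXO42 on ABI (-2.72) without treated replicate 1 (-2.72 to 0.75 over the arrays left out), and CUL1 (0.20), FBXO11 (0.37) and FBXL12 (0.25) on AFFX without the _s_at and _x_at probe sets. In each of these another probe stood for the gene. The main probe of SKP1 had 0.05 and that of FBXO42 0.04 with ribosomal centring, and that of FBXO42 had 0.53 without treated replicate 1. A further 17 values, of 23 in all, turned sign without a call in either setting, among them SKP2 on AFFX (-0.12 with median and -0.22 with ribosomal centring) and FBXW7 on ABI (-0.29 with ribosomal centring). Over all named genes and alternatives 951 values kept their sign and their side of the limits, 77 lost the call and 23 gained one.

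Deviations of same-numbered arrays had correlations of 0.075, 0.004 and 0.327 on AFFX and 0.034, -0.007 and 0.072 on ABI. On both platforms treated arrays 1 and 3 matched the control array of the same number best, and treated array 2 matched control array 1. Whether the numbers pair the samples is thus not settled. With the replicate block 22 members were lower and 1 was higher on AFFX, 12 and 0 on ABI, 12 were lower and 0 higher on both, and 9 differed between platforms. The 3 lost from the shared falls were FBXO41, FBXO45 and FBXW11. The ABI arrays spread more than the AFFX arrays, and without detection flags a dim ABI signal has no known floor.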
